A study of Mus musculus with 4 samples.

Results

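The stromal cells of mouse colon polyps were taken from the deposited matrix by 4 genes, Sparc, Igfbp7, Col3a1 and Plvap, and 57 of the 14198 cell barcodes that passed the cell filter were chosen, which is 0.401% (exact binomial 95% interval 0.304 to 0.520%). A barcode is the DNA tag that marks the transcripts of 1 droplet, and a UMI is a counted transcript molecule. A stromal barcode had at least 5 UMIs of the 4 genes together and 0 UMIs of Ptprc (the leukocyte surface protein CD45), of Epcam (an epithelial adhesion protein) and of the complement genes C1qa, C1qb and C1qc, which macrophages make. The members were chosen by measured values, so the levels of these genes describe the choice and are not findings. Within the 57 barcodes, 23 held at least 3 UMIs of Col3a1, Col1a1 and Col1a2 and fewer than 2 of Plvap, Cdh5 and Pecam1, and these are called the fibroblast group. Another 30 held at least 2 UMIs of Plvap, Cdh5 and Pecam1 and fewer than 3 of the collagens, and these are called the endothelial group. Of the remaining barcodes, 1 passed both limits and 3 passed neither.

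The tumours were raised in female C57BL/6 mice with 1 injection of the mutagen azoxymethane at 12.5 mg per kg, then 3 cycles of 5 days on dextran sulphate sodium, which injures the gut lining, at 2.5, 2.5 and 2% in the drinking water. Tissue was taken 30 days after the final exposure. There are 4 labelled samples, 1 of each kind: CD45+ cells of EgfrΔMYL mice, CD45- cells of EgfrΔMYL mice, CD45+ cells of Egfr fl/fl mice and CD45- cells of Egfr fl/fl mice, where EgfrΔMYL stands for a deletion of the EGF receptor gene in the myeloid lineage and Egfr fl/fl mice are the controls. All 4 carry the same carcinogen treatment, and the Cre driver, the age of the mice and the number of mice or polyps pooled are not given in the sources used here. The polyps were digested with collagenase VIII and DNase I for 1 hour, sorted by CD45 and EPCAM staining, and captured with the 10x Chromium 3′ kit, version 3. The matrix holds 4 libraries, told apart by the number after each barcode, and the sources used here do not tie these numbers to the 4 samples. Genotypes and sorts were therefore not compared, the libraries are given side by side as unlabelled samples, and with 1 sample per group there is no replicate check and no test.

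Fibroblasts build the extracellular matrix: they secrete fibrillar collagens, which are trimmed and crosslinked outside the cell, and in the colon they also send Wnt and BMP signals that hold stem cells at the crypt base and mature cells at the top. Endothelial cells line blood and lymph vessels, rest on a basement membrane of collagen IV, laminins and perlecan, and in small vessels are wrapped by pericytes, which are recruited by PDGF-B and carry its receptor PDGFRB. In colon tumours fibroblasts are also a known source of growth factors such as epiregulin and neuregulin, which act on receptors of the EGF receptor family in epithelium.

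The 57 stromal barcodes held 283040 UMIs, with a median of 3301 per barcode (range 550 to 37130), against 121290557 UMIs and a median of 4954 in the other 14141 barcodes. Library 1 gave 19 stromal barcodes of 594 that passed (3.20%, interval 1.94 to 4.95%) and library 2 gave 38 of 1706 (2.23%, 1.58 to 3.04%). Libraries 3 and 4 gave 0 of 4516 and 0 of 7382, with exact upper limits of 0.0817% and 0.0500%. Library 1 was deeper per stromal barcode (median 7134 UMIs) than library 2 (median 2472.5 UMIs), and its deepest barcode alone held 13.1% of all stromal UMIs and 32.0% of those of the fibroblast group. All intervals here cover counting error only. No nucleotide barcode of a stromal cell was seen in a second library, although 24 barcodes recurred between libraries in the whole matrix.

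Just inside the limit, 1 barcode had 5 UMIs of the 4 genes and 1 had 6, and the median member had 49. Just outside, 3 otherwise eligible barcodes had 4 UMIs and 3 had 3, all of them in libraries 1 and 2. Another 28 barcodes reached 5 UMIs but carried Ptprc, Epcam or C1q transcripts, and these were spread over all 4 libraries, with 4, 8, 8 and 8 in libraries 1 to 4.

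Defining markers of other cell types were rare in the stromal barcodes. None of 10 monocyte and macrophage markers was seen in any of them, of which C1qa, C1qb and C1qc were set to 0 by the rule and the others, Lyz2 and Csf1r among them, were not. None of 5 B cell markers was seen. Of the plasma cell list, Sdc1 (syndecan-1, a surface proteoglycan) was the sole gene seen, with 39 UMIs in 7 barcodes of the fibroblast group, and the others, Jchain and Mzb1 among them, were at 0. Epithelial markers gave 16 UMIs in 14 barcodes, with at most 2 in a barcode. Neutrophil markers gave 25 UMIs in 12 barcodes, 9 of them in 1 endothelial barcode of library 1 with 1553 UMIs. T cell markers gave 11 UMIs in 4 barcodes, 8 of them in a barcode that passed neither limit. Mast cell markers gave 17 UMIs in 8 barcodes, with at most 3 in a barcode. Haemoglobin transcripts were the most widespread trace, with 193 UMIs in 47 barcodes, 65 of them in 1 endothelial barcode. The part of these traces in the results was not tested.

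Against all other barcodes, levels were compared as UMIs per 1000000 UMIs (CPM), summed over the barcodes of each side. A gene was called higher or lower when its level differed at least 2-fold after 1 CPM was added to both sides, with at least 10 UMIs on the higher side, among genes whose 2 levels averaged at least 10 CPM. Of 9216 such genes, 2032 were higher in stromal barcodes (22%) and 1134 were lower (12.3%). Because the rule chose the barcodes from these same counts, these shares are background and nothing is read from them. The median log2 difference of all 9216 genes was 0.51, so a list's values should be read against that shift. Leaving out library 1 left 1042 genes higher, and 1753 of the 2032 had the same sign in libraries 1 and 2.

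The 4 genes of the rule set the scale. Igfbp7, a secreted protein that binds insulin-like growth factors, had 8062 CPM in stromal barcodes (95% Poisson interval 7735 to 8400) and was seen in 57 of 57, against 4.97 CPM in the rest. It stood at 7936 CPM in library 1 and 8268 CPM in library 2. Sparc, a collagen-binding matrix protein, had 3339 CPM in stromal barcodes and 2.27 CPM in the rest. Col3a1, a chain of fibrillar collagen, had 2706 CPM in 24 barcodes, against 1.71 CPM in the rest, and Plvap, which forms the diaphragms of endothelial pores, had 1993 CPM in 31 barcodes, against 0.387 CPM in the rest. Igfbp7 and Sparc were thus shared by nearly every stromal barcode, while Col3a1 and Plvap each marked fewer than 32 of them.

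Transcripts free in the suspension can give a cell a UMI of a gene it does not express, so the same genes were counted in 1406 epithelial barcodes of libraries 1 and 2, which were deeper (median 9166.5 UMIs). Igfbp7 was seen in 0.996% of these, Sparc in 1.42%, Col3a1 in 0.356% and Plvap in 1.07%. Rgs5, a pericyte gene, was seen in 15.8% of stromal barcodes and 1.42% of epithelial ones. Acta2 (smooth muscle actin) was the exception among the matrix and muscle genes, with UMIs in 24.6% of stromal barcodes (14.1 to 37.8%) but also in 9.46% of epithelial barcodes, so a single Acta2 UMI says little.

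Genes outside the rule that stood highest in stromal barcodes were mostly matrix and vessel genes. Collagen IV, the sheet collagen of basement membranes, was the most widespread: Col4a1 had 1918 CPM in 51 of 57 barcodes, against 4.96 CPM in the rest, and Col4a2 had 1194 CPM in 48 barcodes, against 2.47 CPM in the rest. Cxcl12, a chemokine that guides CXCR4-bearing cells, had 1085 CPM in 33 barcodes and 0.445 CPM in the rest. Serpinh1, the collagen chaperone of the endoplasmic reticulum, had 696 CPM in 33 barcodes and 1.10 CPM in the rest. Some high sums came from 1 cell: 475 of 693 Igfbp5 UMIs and 234 of 244 Ccl11 UMIs (eotaxin) lay in the deepest barcode. At the other end, Igha, Jchain, Il1b, Iglc1, Lyz2, Iglc2 and Tyrobp had 0 UMIs in stromal barcodes, which allows up to 10.6 CPM, against 19349 CPM of Igha and 6453 CPM of Il1b in the rest. C1qa and C1qb, which the rule set to 0, are also among the lowest. Igkc, the light chain that plasma cells shed in quantity, had 3 UMIs in stromal barcodes and 50051 CPM in the rest.

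The split into the 2 groups was checked with marker genes that neither the rule nor the split used. Of the fibroblast markers, 7 were unused (Dcn, Lum, Pdgfra, Col6a1, Col6a3, Mmp2 and Fbln1), and they gave 559 UMIs in 23 of 23 fibroblast barcodes and 35 UMIs in 7 of 30 endothelial barcodes. Of the endothelial markers, 7 were unused (Kdr, Flt1, Tie1, Tek, Emcn, Esam and Egfl7), and they gave 14 UMIs in 6 of 23 fibroblast barcodes and 804 UMIs in 30 of 30 endothelial barcodes. Summed over its barcodes, each group thus carried mostly the unused markers of its name, but not every barcode did. In the fibroblast group, 2 barcodes of library 2 with pericyte genes, of 4924 and 4890 UMIs, held 1 UMI of the fibroblast set each. They held 5 and 1 UMIs of the endothelial set, so the check does not bear out the name fibroblast for them. Of the 3 barcodes under both limits, 1 held 5 UMIs of the endothelial set and 2 held none of either set. Among endothelial barcodes, 1 of library 1 stood apart, with 7 UMIs of the fibroblast set and 1 of the endothelial set. Another, of library 2 with lymph vessel genes and 6860 UMIs, held 9 UMIs of the fibroblast set and 8 of the endothelial set. For these barcodes the check does not bear out the split.

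**Figure D1:**
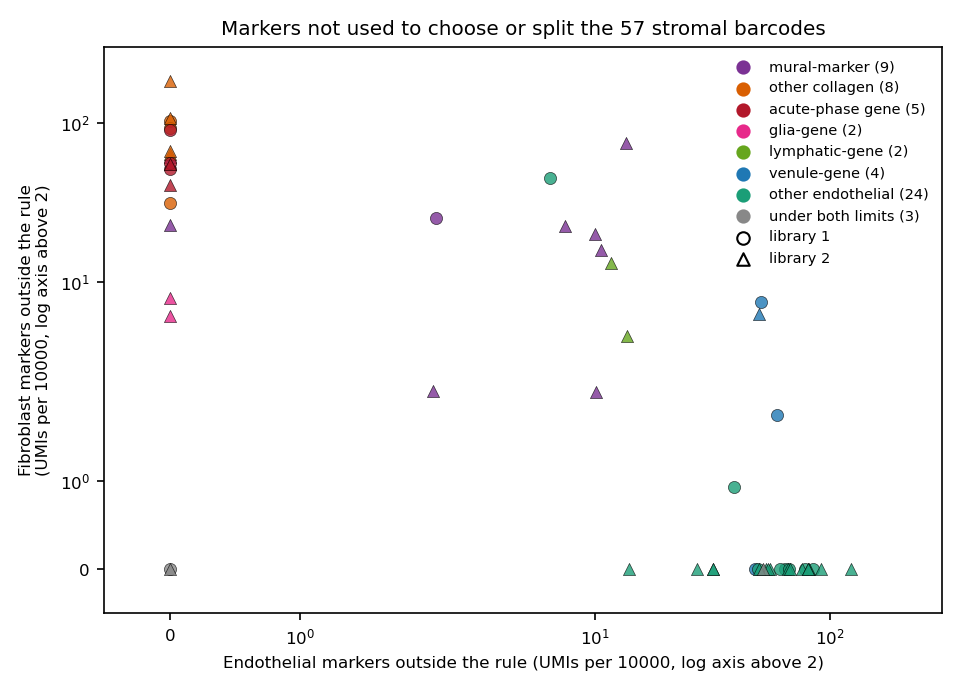
UMIs of 7 fibroblast markers (vertical axis) against 7 endothelial markers (horizontal axis) that were not used to choose or split the barcodes, per 10000 UMIs of each of the 57 stromal barcodes; axes are linear to 2 and logarithmic above, colours are subsets described in the text, circles are library 1 and triangles library 2. Most fibroblast-group barcodes lie along the left edge and most endothelial barcodes along the bottom edge, and every fibroblast-group barcode with both kinds of UMI is one with pericyte or muscle genes.

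Between the groups, 700 of 9068 genes were higher in the fibroblast group (7.72%) and 942 were lower, that is higher in the endothelial group (10.4%), with a median log2 difference of 0.10 over all 9068 genes. The fibroblast group held 116190 UMIs with a median of 3324 per barcode, and the endothelial group 155531 UMIs with a median of 3333. Without library 1 the counts were 238 and 480, and without the deepest fibroblast barcode 502 and 1059. For a gene at 0 UMIs in a group, 3 counts over the group were used as the floor, which is 25.8 CPM for the fibroblast group and 19.3 CPM for the endothelial group, and the fold is then given as "at least". The rule used the collagen and vessel genes of this contrast, so the list counts that follow describe the groups and are set beside the 7.72% and 10.4% of all genes without being read as support.

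The fibrillar and associated collagens marked the fibroblast group: 11 of 13 were higher there, 1 was lower and Col14a1 (4 and 0 UMIs) was not called. Of these genes 3 belong to the rule or the split, and the others followed them. Col6a1, a chain of the beaded-filament collagen VI, had 740 CPM in 17 of 23 fibroblast barcodes (592 to 914) and 0 UMIs in the endothelial group, at least 38.4-fold higher. Col12a1, which coats collagen fibrils, had 663 CPM in the fibroblast group and 6.43 CPM (1 UMI) in the endothelial group. The exception was Col15a1, a basement membrane zone collagen, with 112 CPM in the fibroblast group and 759 CPM in 20 of 30 endothelial barcodes (log2 difference -2.75). Over all 57 barcodes, the genes whose level per barcode was most like that of Col3a1 were Col1a1 (Spearman rho 0.91), Col1a2 (0.87), Col5a2 (0.83), Bgn (0.78) and Col5a1 (0.75), which share the depth of each barcode and are given as a description.

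Basement membrane genes were shared more evenly, with 7 of 12 higher in the fibroblast group, 1 lower and 4 not called. Col4a1 had 1980 CPM in the fibroblast group (1732 to 2253) and 1916 CPM in the endothelial group (1705 to 2146), a log2 difference of 0.05, and the intervals overlap. Col4a2 had 1110 CPM in the fibroblast group and 1260 CPM in the endothelial group. The laminin chains differed: Lamb1 had 809 CPM in the fibroblast group against 251 CPM in the endothelial group, and Lamc1 had 723 CPM against 193 CPM. Without library 1 neither was called, with log2 differences of 0.24 for Lamb1 and 0.62 for Lamc1. Col18a1, whose fragment is endostatin, had 1265 CPM in the fibroblast group and 328 CPM in the endothelial group. Hspg2, which encodes perlecan, went the other way, with 181 CPM in the fibroblast group and 502 CPM in the endothelial group (log2 difference -1.47). It was not called without the barcodes that carry markers of other cells, with Sdc1 counted among those markers (-0.85).

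Of 18 matrix glycoproteins and proteoglycans, 11 were higher in the fibroblast group and 4 were lower. Fn1, fibronectin, had 1954 CPM in the fibroblast group and 186 CPM in the endothelial group, and Dcn, a collagen-binding proteoglycan, had 1980 CPM and 135 CPM. Postn (periostin) was at 732 CPM in 15 fibroblast barcodes and at 0 in the endothelial group. The 4 on the endothelial side were Mgp, Thbs1, Fbln2 and Sparcl1, and Sparcl1 had 430 CPM in 6 fibroblast barcodes against 997 CPM in 22 endothelial barcodes (log2 difference -1.21). Sparcl1 was not called without library 1 (-0.42), without the deepest fibroblast barcode (-0.66) or without the 19 barcodes with 2 or more UMIs of other cells' markers, haemoglobin not counted (-0.39), and Fbln2 was not called without library 2 (-0.91, against -1.57 in all). In matrix processing, 13 of 18 genes at the level were higher in the fibroblast group and Adamts1, a protease, was lower (51.6 CPM against 424 CPM in the endothelial group). Loxl2, which crosslinks collagen, had 689 CPM in 16 fibroblast barcodes and 12.9 CPM (2 UMIs) in the endothelial group, and Pcolce, which speeds the trimming of procollagen, had 508 CPM and 12.9 CPM.

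The barcodes over the collagen limit were not uniform. Including the 1 barcode over both limits, 24 were sorted into 4 subsets by limits set after the values had been seen, so the genes that set a limit are descriptions. The subsets are 9 barcodes with at least 0.5% of UMIs from pericyte and smooth muscle markers, 5 with at least 5 UMIs of Saa3, Hp and Mmp13, 2 with at least 2 UMIs of enteric glia markers, and 8 others.

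**Figure D2:**
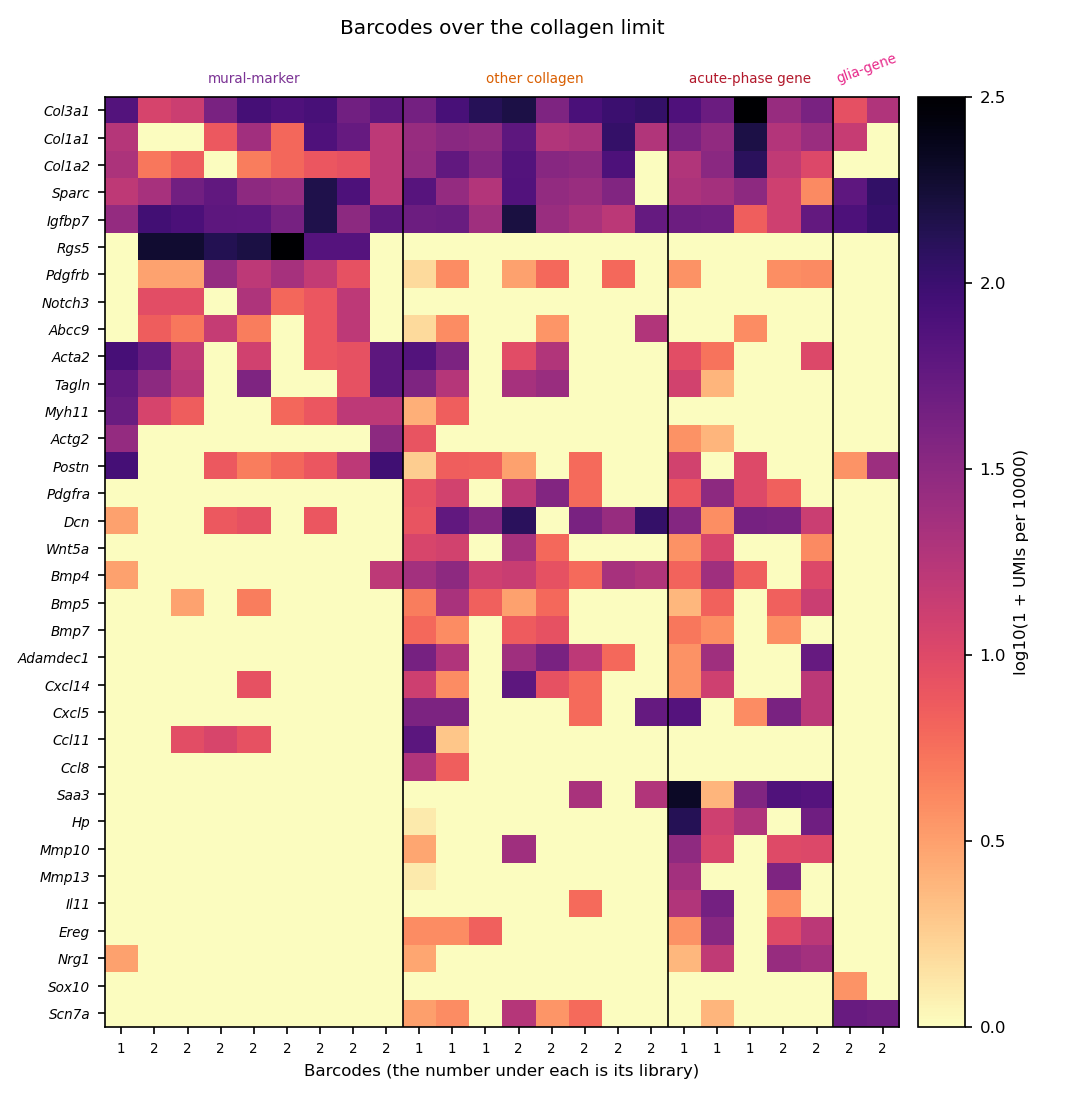
Level of the genes on the vertical axis (rows) in each of the 24 barcodes over the collagen limit (columns, with the library number below), as log10 of 1 plus UMIs per 10000, darker for more. Rgs5 is dark in 7 barcodes of library 2 alone, Pdgfra and Wnt5a lie in the other collagen and acute-phase blocks, and Sox10 and most Scn7a lie in the last 2 columns.

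Of the 9 barcodes with mural markers, 8 came from library 2 and 1 from library 1. Rgs5, a regulator of G-protein signalling typical of pericytes, was in 7 of them, all from library 2, with 92, 91, 40, 41, 81, 10 and 9 UMIs. The same 7 barcodes all carried Pdgfrb, the PDGF receptor of pericytes, and 6 carried Notch3, a receptor of vessel muscle. The other 2 had no Rgs5 and no Pdgfrb, and instead carried the smooth muscle genes Acta2 (40 and 4 UMIs), Myh11 (24 and 1) and Actg2 (13 and 2) with Postn (41 and 6). None of the 9 carried Pdgfra. Over the whole fibroblast group, Rgs5 had 2780 CPM against 129 CPM in the endothelial group, where 19 of its 20 UMIs lay in 1 barcode of library 1. In library 1 alone Rgs5 had 0 UMIs in the fibroblast group and these 19 in the endothelial group, so its direction rests on library 2. Pdgfrb had 258 CPM in 14 fibroblast barcodes and 0 UMIs in the endothelial group, at least 13.4-fold higher. Its ligand gene Pdgfb showed the opposite, with 17.2 CPM (2 UMIs) in the fibroblast group and 289 CPM in 16 endothelial barcodes (211 to 387), a log2 difference of -3.99. In library 1 it had 0 UMIs in the fibroblast group and 36 in the endothelial group, and in library 2 it had 2 and 9 (log2 difference -1.77).

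Pdgfra, the PDGF receptor of connective tissue fibroblasts, was in 9 barcodes, 5 from library 1 and 4 from library 2, and in none that carried Rgs5. It had 800 CPM in the fibroblast group (646 to 981) and 0 UMIs in the endothelial group, at least 41.5-fold higher, and stood at 970 CPM in the fibroblast barcodes of library 1 and 532 CPM in those of library 2. Of these 9 barcodes, 6 also carried Wnt5a, 8 carried Bmp4 and 7 carried Adamdec1, a protease-like gene of gut fibroblasts. High Pdgfra with Bmp and Wnt5a transcripts is what background knowledge gives for subepithelial fibroblasts of the colon, but Foxl1, a transcription factor of that cell, reached 7 UMIs in 2 barcodes and was not called.

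Of the 18 genes of the crypt niche list, 10 were at the level, 7 were higher in the fibroblast group and none was lower. Wnt5a, a Wnt ligand of the non-canonical pathway, had 602 CPM in 7 barcodes (470 to 761) and 0 UMIs in the endothelial group, at least 31.2-fold higher. Its UMIs were 37, 11, 10 and 2 in 4 of the 8 other collagen barcodes and 2, 7 and 1 in 3 of the barcodes with Saa3, Hp or Mmp13. Bmp4, which counters stemness in the crypt, had 1334 CPM in the fibroblast group and 38.6 CPM (6 UMIs) in the endothelial group, and 81 of its 155 fibroblast UMIs lay in the deepest barcode. Bmp5 had 430 CPM in 10 barcodes, at least 22.3-fold higher, and Bmp7 had 293 CPM in 7 barcodes, at least 15.2-fold higher. Grem1, a secreted BMP antagonist of the crypt base, had 164 CPM in 7 barcodes (98.5 to 255) and 0 UMIs in the endothelial group, at least 8.48-fold higher. Rspo1, Rspo2, Rspo3, Wnt2b and Wnt4 were below the level of 10 CPM, so at this depth nothing can be said of them.

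The 5 barcodes with Saa3, Hp or Mmp13 came from library 1 (3) and library 2 (2), with between 3211 and 7264 UMIs each. Saa3, serum amyloid A3, had 150, 1 and 12 UMIs in the 3 barcodes of library 1 and 25 and 22 in those of library 2, and Hp, haptoglobin, had 95, 8 and 6 in library 1 and 0 and 15 in library 2. Both are acute-phase proteins that bind lipid or free haemoglobin. Genes that did not set the limit were found in the same cells. Mmp10, a matrix protease that activates other proteases, was in 6 barcodes of the 57, and 4 of these were among the 5, with 21, 7 and 0 UMIs in library 1 and 3 and 3 in library 2. Il11, an IL-6 family cytokine made by injured stroma, had 45 UMIs in 4 barcodes, with 13 and 30 in 2 of the library 1 barcodes. Ccl2, a monocyte chemokine, had 22 UMIs in 1 barcode and 6 in another. Without library 1, Hp, Mmp13 and Ccl2 were no longer 2-fold above the rest (log2 differences of -0.46, 0.87 and 0.93). Ccl2 also fell just short of 2-fold without library 3 (0.98). Over the groups, Mmp10 had 448 CPM in the fibroblast group and 0 UMIs in the endothelial group, at least 23.2-fold higher, and Il11 had 387 CPM (282 to 518) and 0 UMIs, at least 20.1-fold higher. Il11 stood at 605 CPM in the fibroblast barcodes of library 1 and 44.4 CPM (2 UMIs) in those of library 2. Il6 itself had 1 UMI in the fibroblast group and 3 in the endothelial group, and the signal-transducing receptor Il6st had 267 CPM in the fibroblast group (181 to 379) and 347 CPM in the endothelial group (261 to 453), whose intervals overlap.

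These 5 cells also carried traces that other cell types share: 4 of them held 2 or more UMIs of the epithelial, macrophage, neutrophil, T cell, B cell, plasma cell and mast cell lists, most of them Sdc1, with 3, 7, 1 and 1 UMIs. Haemoglobin UMIs were not counted here. Leaving out every stromal barcode with 2 or more UMIs of these lists removed 19 barcodes, and Mmp13, Mmp10, Hp, Il11, Nrg1 and Ccl2 were then no longer above the rest. Saa3 was then just short of 2-fold (0.99), and Ereg was still higher (3.49). Sdc1 is also made by cells other than plasma cells. With Sdc1 not counted as a trace, 14 barcodes were removed, and Mmp13, Mmp10, Il11 and Nrg1 were higher in the stromal barcodes (log2 differences of 1.57, 7.10, 7.68 and 1.74). Hp, Ccl2 and Saa3 were also higher there (1.90, 1.83 and 4.65).

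The promoters of 3 of these genes are shown because they hold the same AP-1 sequence and the genes are described above; Mmp13, which helped set the limit, was in 2 of the 5 cells, with 1 UMI in the deepest barcode and 11 in the endothelial barcode that held 9 neutrophil marker UMIs. AP-1 is the dimer of FOS and JUN family proteins that binds TGACTCA, and the capitals mark that motif or its reverse complement TGAGTCA on the strand shown. Each runs 5′ to 3′ on the strand of the gene, from 250 bases before to 50 after the start site, from RefSeq's annotation of GRCm38.p6.
Mmp10, chr9:7502092-7502391, plus strand: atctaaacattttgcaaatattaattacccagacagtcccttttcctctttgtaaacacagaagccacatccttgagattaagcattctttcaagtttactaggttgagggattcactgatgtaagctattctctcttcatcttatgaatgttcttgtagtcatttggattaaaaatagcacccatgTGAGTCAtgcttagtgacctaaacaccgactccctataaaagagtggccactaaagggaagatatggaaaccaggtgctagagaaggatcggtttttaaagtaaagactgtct
Mmp13, chr9:7272264-7272563, plus strand: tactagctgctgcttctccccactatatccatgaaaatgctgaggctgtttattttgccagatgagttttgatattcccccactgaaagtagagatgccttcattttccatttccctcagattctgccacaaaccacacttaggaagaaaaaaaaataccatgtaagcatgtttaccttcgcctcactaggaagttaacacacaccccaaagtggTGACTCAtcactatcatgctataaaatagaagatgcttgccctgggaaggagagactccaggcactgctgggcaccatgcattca
Il11, chr7:4778092-4778391, minus strand: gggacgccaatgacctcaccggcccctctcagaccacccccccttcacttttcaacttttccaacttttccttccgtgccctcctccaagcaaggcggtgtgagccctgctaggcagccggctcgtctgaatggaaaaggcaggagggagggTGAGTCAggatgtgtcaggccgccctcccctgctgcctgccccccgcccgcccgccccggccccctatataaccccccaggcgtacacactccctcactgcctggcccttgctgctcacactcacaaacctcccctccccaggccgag
The motif begins at base -63 in Mmp10, -35 in Mmp13 and -98 in Il11 counted from the start site, and a second listed start of Il11 at chr7:4782808-4783107 has none. Searched on both strands, TGACTCA was found in 1709 of 32851 promoters of the same length (5.20%). Of 12 genes of these cells that were looked up (Saa3, Hp, Mmp10, Mmp13, Il11, Ereg, Nrg1, Ccl2, Il1rl1, Cxcl1, Cxcl2 and Hk2), 8 had a promoter in the table and 3 of those held the motif. A gene was counted when any of its listed promoters matched, whereas the 5.20% counts promoters, so the 2 are not like measures. A match is a description of these letters and does not show binding.

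The genes of AP-1 and of the heat-shock response, which cell dissociation is known to induce, were lower in the fibroblast group than in the endothelial group: all 11 genes of that list were called, with a median log2 difference of -1.82. Fos had 775 CPM in 11 fibroblast barcodes (623 to 952) and 2662 CPM in 20 endothelial barcodes (2412 to 2931), and 142 of the 414 endothelial UMIs lay in 1 barcode. Zfp36, which destabilises cytokine messages, had 68.9 CPM and 1267 CPM. The differences were larger in library 1: the log2 value for Fos was -4.49 there and -0.64 in library 2, so that Fos, and Hspa1a at -0.14, were not called without library 1. Against the rest, 8 of the 11 were higher in stromal barcodes, Hspa1a with 1583 CPM against 246 CPM. The part of handling in these levels was not tested.

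Of 7 genes of the EGF receptor family at the level, the ligands Ereg and Nrg1 were higher in the fibroblast group and none was lower. Ereg, epiregulin, had 413 CPM in the fibroblast group (305 to 548) and 0 UMIs in the endothelial group, at least 21.4-fold higher, against 1.10 CPM in all non-stromal barcodes. It was in 7 barcodes with 2 and 23 UMIs (library 1) and 3 and 5 UMIs (library 2) among the 5 acute-phase cells, and 11, 3 and 1 UMIs in 3 other collagen barcodes of library 1. It was seen in 12.3% of stromal barcodes (5.08 to 23.7%) and 0.498% of the epithelial barcodes (0.200 to 1.02%). Nrg1, neuregulin 1, which binds ERBB3 and ERBB4, had 301 CPM in 6 fibroblast barcodes (210 to 419) and 0 UMIs in the endothelial group, at least 15.6-fold higher, and 40.0 CPM in the rest. It stood at 267 CPM in the fibroblast barcodes of library 1 and 355 CPM in those of library 2, so it did not rest on 1 library. It did rest on few cells: in library 2 its UMIs were 9 and 7, in acute-phase cells. Without the barcodes that carry markers of other cells Nrg1 was below the rest (log2 difference -2.27), and with Sdc1 not counted it was above (1.74). The same cells were involved: 5 of the 7 Ereg barcodes carried Nrg1, and 5 carried Pdgfra. Areg, amphiregulin, had 0 UMIs in all 57 barcodes, which allows up to 10.6 CPM, against 141 CPM in the rest, Hbegf had 2 UMIs in the fibroblast group and 4 in the endothelial group, and Tgfa had 0 and 2.

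The receptor genes were scarce. Egfr had 6 UMIs in 4 fibroblast barcodes, 51.6 CPM (19.0 to 112), and 0 UMIs in the endothelial group, which allows up to 19.3 CPM. It was not called. It was seen in 8.77% of stromal barcodes (2.91 to 19.3%) and in 15.1% of the epithelial barcodes, where the median depth was higher. As a level, the epithelial barcodes had 20.2 CPM of Egfr, which lies inside the interval of the fibroblast group. Egfr is the gene deleted in the myeloid cells of EgfrΔMYL mice, and 2 of the 5 stromal barcodes with an Egfr UMI also carried Ereg. Erbb3 had 3 UMIs, all in the 2 barcodes with glia genes, and Erbb2 had 2 UMIs in the fibroblast group and 1 in the endothelial group.

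**Figure D3:**
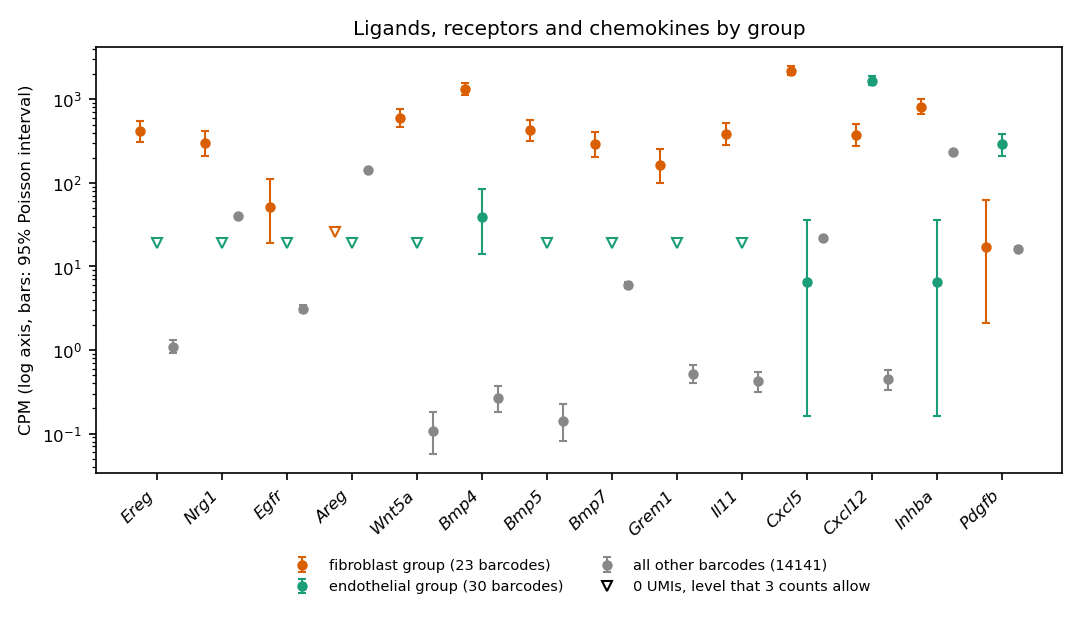
CPM on a log axis of 14 ligands, receptors and chemokines in the fibroblast group (23 barcodes), the endothelial group (30 barcodes) and all 14141 other barcodes, with 95% Poisson bars, and open triangles where a group had 0 UMIs, drawn at the level that 3 counts allow. Ereg, Nrg1, Wnt5a, Bmp5, Bmp7, Grem1 and Il11 have points in the fibroblast group and triangles in the endothelial group, Cxcl12 and Pdgfb are higher in the endothelial group, and Areg is seen in the other barcodes alone.

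Chemokines also lay mostly on the fibroblast side, with 11 of 14 higher in the fibroblast group and 1 lower. Cxcl5, a neutrophil attractant, had 2195 CPM in 8 fibroblast barcodes and 6.43 CPM (1 UMI) in the endothelial group, with 143, 38 and 50 of its 255 UMIs in 3 barcodes of library 1. Cxcl14 had 818 CPM in 8 barcodes and 0 UMIs in the endothelial group, at least 42.4-fold higher. Ccl11 and Ccl8, which attract eosinophils and monocytes, had 234 of 242 and 67 of 73 fibroblast UMIs in the deepest barcode, and Ccl8 was not seen in library 2. Cxcl12 was the exception, with 379 CPM in 11 fibroblast barcodes (275 to 508) and 1678 CPM in 20 endothelial barcodes (1481 to 1895), a log2 difference of -2.14. It was lower in the fibroblast group in both libraries, at 380 CPM against 2236 CPM in library 1 and 377 CPM against 752 CPM in library 2, where the log2 difference of -0.99 fell just short of 2-fold.

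Of the TGF-beta and PDGF pathway, 6 of 13 genes were higher in the fibroblast group and 2 were lower. Inhba, a subunit of activin A, had 818 CPM in 10 fibroblast barcodes and 6.43 CPM (1 UMI) in the endothelial group, with 64 of 95 UMIs in the deepest barcode. Tgfb1 had 51.6 CPM in the fibroblast group and 141 CPM in the endothelial group, and it was not called without the barcodes that carry markers of other cells (log2 difference -0.88). Tgfb1 also showed how the make-up of the rest matters: against all other barcodes it was lower in stromal barcodes (102 CPM against 217 CPM), while within library 1 it had 97.0 CPM against 37.5 CPM and within library 2 111 CPM against 21.5 CPM.

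A pair of barcodes from library 2, of 3823 and 3301 UMIs, carried genes of enteric glia, the support cells of gut nerves. Their UMIs, the first barcode before the second, were 1 and 0 for Sox10 (the neural crest factor) and 0 and 3 for S100b. Scn7a, a sodium channel gene, gave 20 and 16 UMIs and Kcna1, a potassium channel gene, 5 and 11, with Kcna1 in no other stromal barcode. They passed the collagen limit on 8 and 6 collagen UMIs, and held 0 UMIs of Pdgfra, Dcn, Lum and Fbln1 and 3 and 2 UMIs of the 7 unused fibroblast markers. A barcode of library 2 with 550 UMIs that passed neither limit also held 2 UMIs of the glia list. Pdgfa, a PDGF ligand gene, had 5 and 11 UMIs there, of 28 in the fibroblast group, and its log2 difference between the groups was 1.13. In library 1 alone Pdgfa had 0 UMIs in the fibroblast group and 11 in the endothelial group, so this direction rests on library 2.

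Blood vessel genes defined the endothelial group: 17 of 19 were lower in the fibroblast group, none was higher, and Cldn5 and Erg were not called. Of these, Pecam1, Cdh5 and Plvap set the group. Egfl7, a secreted vessel protein, had 0 UMIs in the fibroblast group and 1787 CPM in 27 of 30 endothelial barcodes, at least 69.2-fold lower in the fibroblast group. Flt1 and Kdr, receptors of VEGF, had 0 UMIs in the fibroblast group and 894 CPM and 604 CPM in the endothelial group. Fabp4, a fatty acid binding protein of capillaries, had 0 UMIs in the fibroblast group and 2591 CPM in 24 endothelial barcodes, at least 100-fold lower in the fibroblast group. Sox18, a transcription factor of vessel growth, was in 24 endothelial barcodes at 862 CPM. The genes most like Plvap across the 57 barcodes were Pecam1 (Spearman rho 0.75), Flt1 (0.74), Ptprb (0.73), Pim3 (0.73) and Egfl7 (0.70).

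**Figure D4:**
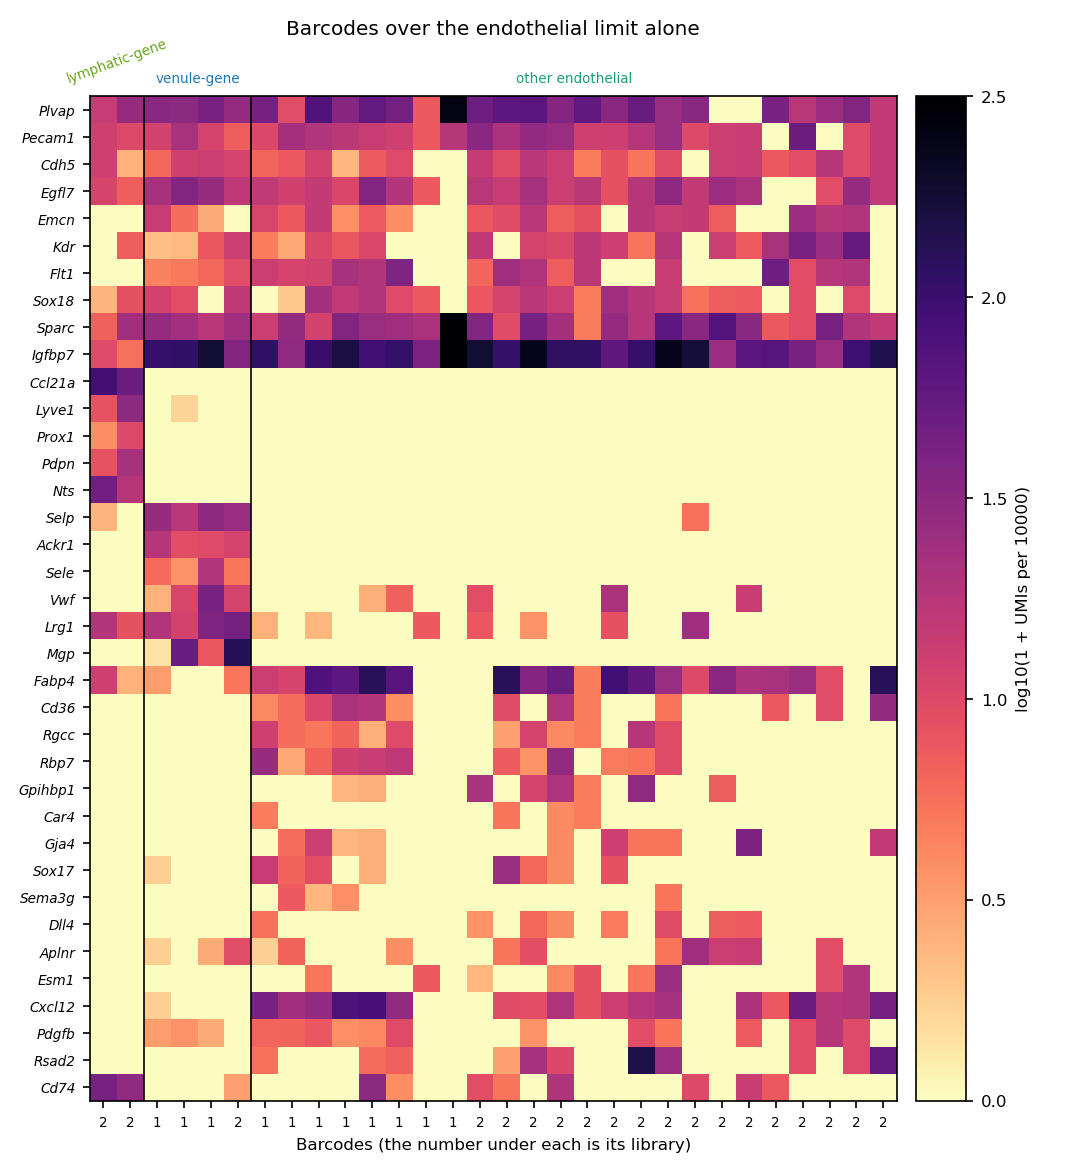
Level of the genes on the vertical axis (rows) in each of the 30 endothelial barcodes (columns, with the library number below), as log10 of 1 plus UMIs per 10000, darker for more. Ccl21a, Lyve1 and Prox1 lie mainly in the first 2 columns, Selp, Ackr1, Sele and Mgp mainly in the next 4, and Fabp4, Cd36, Rgcc, Rbp7 and Cxcl12 mainly in the remaining 24.

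Vessel types separated within the endothelial group, again by limits set after the values had been seen. A set of 4 barcodes, 3 from library 1 and 1 from library 2, held at least 5 UMIs of Ackr1, Selp and Sele, genes of the venules through which leukocytes leave the blood. Selp, P-selectin, had 69, 24 and 17 UMIs in library 1 and 12 in library 2, and Ackr1, a chemokine-binding receptor, had 45, 12 and 5 in library 1 and 5 in library 2. Genes that set no limit lay in the same cells. Vwf, the clotting factor carrier, was at 908 CPM in the 4 barcodes and 177 CPM in the 24 other endothelial barcodes, and Lrg1 was at 2030 CPM and 188 CPM. Mgp, an inhibitor of calcification, had 146 UMIs in the 4 barcodes, 141 of them in 2, and 0 in the 24 others. Cd36, Rgcc and Rbp7 had 0 UMIs in the 4 barcodes, which allows up to 58.0 CPM each. The depth differed, with a median of 10299.5 UMIs in the 4 barcodes and 2472.5 in the 24.

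The 24 other endothelial barcodes, 8 from library 1 and 16 from library 2, were the remainder, and most but not all carried capillary genes. They include the barcode of library 1 that held 9 neutrophil marker UMIs. Fabp4 was in 20 of the 24 at 4272 CPM, Cd36, a fatty acid transporter, in 13 at 642 CPM, and every one of the 14 stromal barcodes with Cd36 also held Fabp4. Rbp7 was in 12 and Rgcc in 12. Cxcl12 was at 2867 CPM in 19 of these barcodes and at 38.7 CPM (2 UMIs) in the 4 venule barcodes. Gja4, a connexin of arteries, had 29 UMIs in 10 barcodes and Dll4, a Notch ligand of arteries and sprouting tips, 16 UMIs in 8. Gja5, Hey1 and Car4 of the same list were not called between the fibroblast and endothelial groups. Esm1, which marks sprouting tip cells, had 18 UMIs in 9 barcodes of the endothelial group, whereas Apln had 3 UMIs in 2 barcodes and Angpt2 had 1 UMI there, so the tip genes were too sparse to set apart any cells. Rsad2, an interferon-induced antiviral gene, had 70 UMIs in 11 barcodes, 35 of them in 1 barcode of library 2.

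Lymph vessel genes lay in 2 barcodes of library 2, of 6860 and 6590 UMIs. Ccl21a, the chemokine that draws dendritic cells into lymphatics, had 60 and 32 UMIs there and 0 in the other 55 stromal barcodes. It has near-identical copies in the mouse genome, so its count may be shared with them. Lyve1, a hyaluronan receptor, had 5 and 20 UMIs and Prox1, the lymphatic identity factor, 2 and 6. Prox1 was not called, either between the groups or against the rest, and Mmrn1 and Reln of the same list were below the level. Nts, neurotensin, had 30 and 11 UMIs, and Pdpn, a mucin-like surface protein, 5 and 14. The same 2 barcodes held 9 and 3 UMIs of Dcn. Kdr had 0 and 4 UMIs and Cxcl12 and Ly6a had 0 in both. Cd74, the invariant chain of MHC class II, had 28 and 19 UMIs, against 39 UMIs over the 24 other endothelial barcodes.

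Of 8 antigen presentation genes at the level, 4 were lower in the fibroblast group and none was higher. H2-K1, of MHC class I, was at 1971 CPM in the fibroblast group and 2861 CPM in the endothelial group, which are under 2-fold apart. Class II genes were seen in the endothelial group, with Cd74 at 8.61 CPM (1 UMI) in the fibroblast group and 559 CPM in 11 endothelial barcodes, and H2-Aa at 0 UMIs in the fibroblast group and 122 CPM in 7 endothelial barcodes, at least 4.73-fold lower in the fibroblast group. The part of other cells in these class II UMIs was not tested. The rest had 10288 CPM of Cd74 and 3407 CPM of H2-Aa.

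Top2a and Mki67, genes of dividing cells, were scarce in the stromal barcodes. Top2a had 0 UMIs and Mki67 had 1 UMI in all 57, which is 3.53 CPM (0.0894 to 19.7), against 65.0 CPM and 67.9 CPM in the rest. Of 8 proliferation genes at the level, 5 were lower in stromal barcodes and none was higher, and Mcm6, Cdk1 and Tubb4b were not called. Genes of hypoxia and glycolysis were mostly uncalled against the rest (3 of 11 lower, none higher). Hk2, hexokinase 2, was higher in the fibroblast group than in the endothelial group, with 15 UMIs (129 CPM) and 1 UMI (6.43 CPM), and 13 of the 15 lay in the 5 acute-phase cells. It was not called without the barcodes that carry markers of other cells, with Sdc1 counted among those markers (log2 difference 0.86).

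**Figure D5:**
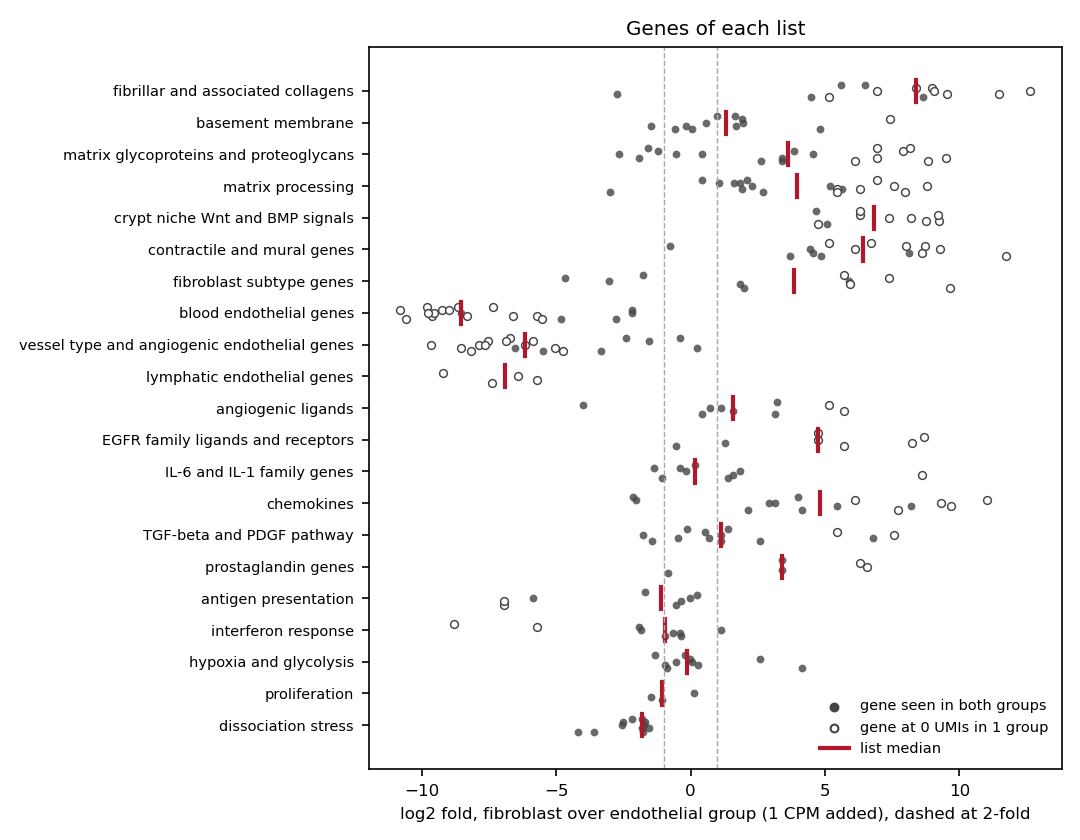
Log2 difference of the fibroblast group over the endothelial group, with 1 CPM added to both, for each gene of 21 lists that reached the level; open points are genes at 0 UMIs in 1 group, whose place depends on the added CPM, red bars are list medians and dashed lines mark 2-fold. Collagens, crypt niche signals and contractile genes lie mostly to the right, blood and lymph vessel genes to the left, and every dissociation stress gene lies to the left of the 2-fold line.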

How the data were processed

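The deposited file is a single matrix of UMI counts per gene and barcode, not normalized, which the authors made with Cell Ranger 3.0.2 on the mm10 build, per the file headers and the processing notes that the submitters gave. The annotation release and any step after counting are not given in the sources used here. Of 18026 deposited barcodes, those with at least 500 UMIs, at least 200 genes and at most 20% mitochondrial UMIs were kept. UMIs were summed over barcodes and expressed per 1000000 UMIs (CPM). Intervals are exact Poisson intervals for CPM and exact binomial (Clopper-Pearson) intervals for shares, at 95%, and cover counting error only. No test was run, because the 4 libraries could not be tied to samples. No doublet caller was run on the 57 barcodes.

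Genes named in the text are those of the rule, the 25 highest and 10 lowest in stromal barcodes, the 20 highest in each group, the 5 most like Col3a1 and Plvap, and members of 21 lists of 280 genes and 14 marker lists. Saa3, Il1rl1, Scn7a, Kcna1 and Nts were added after their values were seen. The members and lists were chosen with earlier results of these data known, and the limits of the subsets were set after the values were seen. The calls were checked on simulated sums with known folds, drawn with counting error only. The simulation held no spread between cells and no dominant barcode, so it cannot speak to sums that rest on few cells. Promoters came from RefSeq's annotation of GRCm38.p6, the same assembly as mm10. Alternatives changed the limits, the depth, the libraries, the added CPM and the rest. Python 3.11, numpy 2.4.6, scipy 1.17.1, pandas 2.3.3 and matplotlib 3.10.9 were used. A few members of the lists are not reported here.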

Additional observations from a re-analysis of the deposited data

Results flagged for a closer look

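A stromal signal was also seen in barcodes that the cell filter had set aside. Of 3828 such barcodes, 7 met the marker rule, with at least 5 UMIs of Sparc, Igfbp7, Col3a1 and Plvap and none of Ptprc, Epcam or C1q. All 7 had more than 20% mitochondrial UMIs, with a median of 27.5%, and a median of 1623 UMIs. By library, 3 were in library 1, 3 in library 2, 0 in library 3 and 1 in library 4. Of these, 5 passed the collagen limit alone and 0 passed the endothelial limit alone. They entered no comparison.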

How the results depend on the processing

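No paired analysis was possible because the labels give 1 sample per group and no replicate numbers. Counts of genes moved most with depth and cells. Thinned to 1000 UMIs per barcode (1031 barcodes, 6 of them stromal, were left out), 435 genes were higher in stromal barcodes, 107 in the fibroblast group and 232 in the endothelial group. Without the 19 stromal barcodes with 2 or more UMIs of other cells' markers, haemoglobin not counted, 1204 genes were higher in stromal barcodes and 292 in the fibroblast group, and 452 in the fibroblast group with Sdc1 not counted. Without the deepest 10% of stromal barcodes (6 left out) 405 were higher in the fibroblast group. Without library 1 these counts were 1042 in stromal barcodes, 238 in the fibroblast group and 480 in the endothelial group, and without library 2 19 stromal barcodes remained. With no level filter 3331 genes were lower in stromal barcodes. In library 2 on its own 911 genes were higher and 2122 lower in stromal barcodes, against its own rest. The causes were not tested, except that thinning and leaving out cells lower the UMIs behind each call.

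Of 4503 repeats of the log2 values of named genes, 3006 moved by less than their counting error, 1463 moved by more and 34 changed sign. The 3006 include repeats that could not move, so they are no measure of stability. The level filter does not enter the log2 value, and all 237 repeats without it were the same. Libraries 3 and 4 held 0 stromal barcodes, so leaving either out could not change a value of fibroblast over endothelial. Stromal over rest, the changes of sign without barcodes carrying other cells' markers were Ccl2 -0.11, Hp -2.04, Il11 -0.51, Il1rl1 -3.66, Mmp10 -0.56, Mmp13 -5.99 and Nrg1 -2.27. With at most 10% mitochondrial UMIs they were Ccl2 -0.0483 and Hp -0.76, thinned Il11 -0.47 and Sele -0.20, and without library 1 Hp -0.46. Without library 2 they were Ccl21a -0.76, Notch3 -0.32 and Nts -0.57. In library 1 on its own they were Ccl21a -3.63, Lyve1 -0.12, Notch3 -0.96, Nts -3.20, Pdgfa -0.56 and Tgfb1 1.35. In library 2 on its own they were H2-Aa 0.25 and Tgfb1 2.32. Tgfb1 was also 1.90 against the rest of libraries 1 and 2, and 1.58 against a rest without Ptprc and C1q UMIs, where Il6 was 0.30, and Il6 was 1.16 with at least 3 marker UMIs. Fibroblast over endothelial, they were Ccl2 -6.58 and Cxcl2 -3.68 without barcodes carrying other cells' markers, Ccl2 -0.0389 and Pdpn -0.29 without library 1, Pdgfa -6.84 and Rgs5 -7.62 without library 2, and Rgs5 -7.02 without the mural barcodes. Where a side had 0 UMIs, as Rgs5, Pdgfa and Mmp13 did, the value depends on the added CPM and is no measure of size. Their causes were not tested.

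At 57 barcodes, a gene at 0 UMIs could still have up to 10.6 CPM, and few barcodes are deep enough for the absence of a gene from 1 of them to say much.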

Other observations

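Contractile genes were not restricted to the barcodes with mural markers. Of 14 genes of that list, 11 were higher in the fibroblast group than in the endothelial group and none was lower. Acta2, smooth muscle actin, had 400 UMIs in 13 fibroblast barcodes and 0 in the endothelial group, and 259 of them lay in the deepest barcode, which also had 140 of the 241 UMIs of Tagln, an actin-binding protein. That barcode held 29 UMIs of Pdgfra and 0 of Rgs5. C4b, a complement gene, had 663 CPM in 12 fibroblast barcodes (523 to 828) and 0 UMIs in the endothelial group, at least 34.4-fold higher, and C3, another, had 439 CPM in 9 fibroblast barcodes and 6.43 CPM (1 UMI) in the endothelial group, with 24 of its 51 UMIs in an acute-phase barcode of library 1. Among fibroblast subtype genes, 5 of 10 were higher in the fibroblast group and 3 were lower. Of those, Cd34, often used to sort fibroblasts of the outer gut wall, had 4 UMIs in 1 fibroblast barcode, 34.4 CPM, against 907 CPM in 24 endothelial barcodes (log2 difference -4.68), and Ly6a had 1033 CPM in 9 fibroblast barcodes against 3549 CPM in 26 endothelial barcodes.

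Ramp2, a partner of the adrenomedullin receptor, had 51.6 CPM in the fibroblast group and 1222 CPM in 22 endothelial barcodes, and Aplnr, the apelin receptor, had 0 UMIs and 199 CPM in 13 barcodes, at least 7.72-fold lower in the fibroblast group. Of 19 vessel type and angiogenic genes, 14 were lower in the fibroblast group and none was higher, and of the 4 lymphatic genes at the level, 3 were lower. Of 9 angiogenic ligands, 3 were higher and 1 was lower: Vegfa had 14 UMIs in 5 fibroblast barcodes and 2 in the endothelial group, while 20 of its 36 stromal UMIs lay in 1 barcode of library 1 that passed neither limit and also held 150 UMIs of Fos and 8 UMIs of T cell markers. Of the prostaglandin genes at the level, 1 of 5 was higher in the fibroblast group, namely Ptges, the synthase of prostaglandin E2, with 11 UMIs in 8 barcodes and 0 in the endothelial group, at least 4.91-fold higher. Of 9 interferon response genes, 1 was higher and 3 were lower in the fibroblast group, and of 9 IL-6 and IL-1 family genes, 3 were higher and 1 was lower. In the EGF receptor family, Ereg and Nrg1 were the 2 higher of 7 genes at the level.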
